A study of Mus musculus with 4 samples.

Results

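Elavl peaks were described in 10 integrin subunit genes of the mouse, 7 encoding alpha subunits (Itga3, Itga5, Itga6, Itga7, Itga8, Itga9 and Itgav) and 3 encoding beta subunits (Itgb1, Itgb5 and Itgb8). They are 10 of 27 integrin subunit genes and of 21900 protein-coding genes in the RefSeq table for GRCm38.p6. A peak belonged to a member when it overlapped the annotated span of the gene and lay on the strand that held most of the peaks of that gene. The spans held 28 of the 97775 peaks of the cortex list and 15 of the 7335 peaks of the N2A list, 43 in all. No peak in a member's span lay on the other strand. Member peaks were selected on the position and strand of the deposited peaks, and the genes were chosen by name with earlier counts of their peaks known, so the numbers of peaks below are a description without a test.

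The peaks come from HITS-CLIP, in which proteins are crosslinked to RNA by ultraviolet light and precipitated, and the short RNA pieces that stay attached after mild RNase treatment are sequenced. The labels give 3 mouse cortex samples, made with a degenerate 5′ linker of 25 nt, and 1 sample of N2A, an established mouse neuroblastoma cell line, made with a linker of 7 nt. The name of the cortex list carries the term 2month, which the labels do not explain, and strain, genotype, age and antibody are not stated by the labels. Each group has 1 list, with a p-value per peak and no read counts, so depth is unknown, no value belongs to a single sample and no spread between replicates could be computed. Group, linker and number of samples cannot be told apart in any comparison of the lists.

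Integrins are cell-surface receptors made of 1 alpha and 1 beta chain. They hold cells to the extracellular matrix and, through talin and kindlin, to the actin cytoskeleton. Alpha 3, alpha 6 and alpha 7 pair with beta 1 to bind laminins, alpha 5, alpha 8 and the alpha v family recognise the arginine-glycine-aspartate sequence of fibronectin, vitronectin and related ligands, and alpha 9 binds tenascin-C among others. In the brain they act in radial glial attachment, neuronal migration, axon growth, synapse function and vascular stability. Elavl proteins bind U-rich and AU-rich RNA, in introns and in 3′ untranslated regions, and influence splicing, polyadenylation and mRNA stability.

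Of the 10 genes, 6 had a cortex peak, 4 had an N2A peak, 3 (Itga6, Itgav and Itgb1) had both, and 3 (Itga3, Itga5 and Itgb8) had none. With a p under 0.05 required, 4 had a cortex peak (Itga6 and Itga8 dropped out) and 2 had both, and with a p under 0.01, 3 and 2 did (Itga7 dropped out too). The count of 4 with an N2A peak was the same at both limits. Among all coding genes, counted by the same rule, 40.8% had a cortex peak, 14.4% an N2A peak and 13.1% both. The members' spans were longer than usual, with a median of 73.5 kb against 17.1 kb for all coding genes. A list holds only called peaks, so a gene without one is not shown to be unbound, and RNA levels were not measured. In these samples, fewer cells that make a transcript and less of it per cell cannot be told apart.

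**Figure D1:**
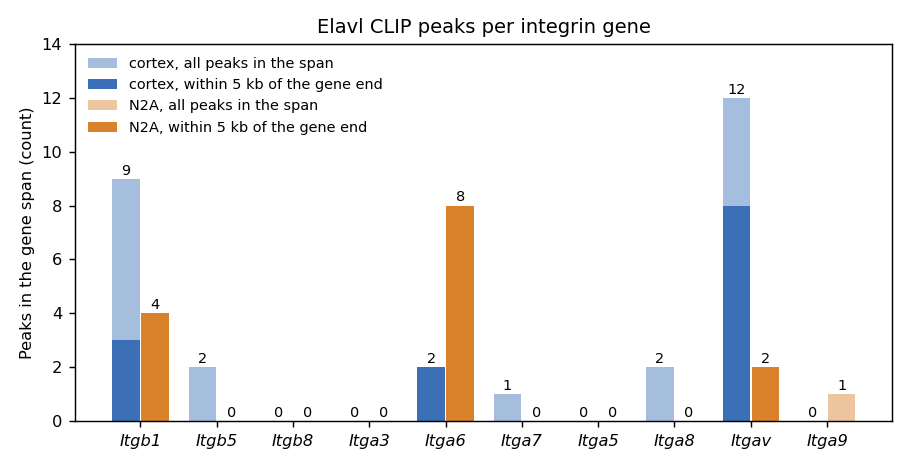
Peaks in the span of each integrin gene (count, vertical axis) in the cortex list (blue) and the N2A list (orange), beta subunits first; the solid part of a bar is the peaks within 5 kb of the annotated gene end. Itgav and Itgb1 have the most cortex peaks, 12 and 9, and Itga6 has the most N2A peaks, 8.

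Itgb1 encodes the beta 1 chain, the partner of all the alpha subunits among the members. It lies on chromosome 8 at 128685654 to 128733579 on the plus strand, and its 47.9 kb held 9 cortex and 4 N2A peaks. At least 9 cortex peaks were found in 11.2% of coding genes, and at least 4 N2A peaks in 2.47%. The strongest cortex peak, at 128732221 to 128732272, had a p of 6.26e-26 and lay 1.31 kb from the gene end. The next in strength lay 0.599 kb (p of 6.55e-19) and 0.428 kb (p of 3.09e-16) from the end. These 3 were the only Itgb1 cortex peaks in the last 5 kb, and they ranked among the strongest 6.52% of the cortex list.

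The other 6 cortex peaks of Itgb1 were spread over the body of the gene, from 5.82 to 37.4 kb before its end. One of them stood out by its p of 9.68e-08, at 128726827 to 128726878 and 6.70 kb from the end. The p-values of the remaining 5 ran from 0.00235 to 0.0780. All 4 N2A peaks of Itgb1 lay in the same final stretch as the strong cortex peaks, 0.419 to 1.25 kb from the end, with p-values from 4.68e-43 to 4.12e-26. The strongest, at 128732928 to 128732979, ranked 177th of the 7335 N2A peaks, and its centre was 1.5 nt from that of a cortex peak. The N2A peak at 128733109 to 128733160 was displaced from a cortex peak by 8.5 nt. The one at 128732276 to 128732326 began just past the strongest cortex peak, with centres 54.5 nt apart, and the fourth, at 128732745 to 128732795, had its centre 185 nt from the nearest cortex one. In Itgb1 the lists thus shared 2 overlapping sites, and N2A had no peak in the gene body, where cortex had 6.

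Itgb5 encodes the beta 5 chain, a partner of alpha v and a vitronectin receptor. It lies on chromosome 16 at 33829665 to 33949338, and 2 cortex peaks were listed in its 119.7 kb. Their p-values were 0.00111 at 33909150 to 33909200 and 0.0163 at 33845252 to 33845302. They lay 40.1 and 104.0 kb from the gene end, and no N2A peak was listed. Both were thus internal, the pattern also seen in Itga7 and Itga8.

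Itgb8 encodes the beta 8 chain, which with alpha v binds and activates latent TGF-beta and has a known role in brain vessels. Its span, on chromosome 12 at 119162803 to 119238276, held no peak in either list. However, 8 cortex peaks on its annotated minus strand lay just past its annotated end, 0.409 to 4.65 kb downstream, in a stretch of 4296 nt. These peaks are outside the rule and were looked for after the lists had been seen. The strongest, at 119159032 to 119159083, had a p of 2.33e-40 and ranked among the strongest 2.28% of the cortex list. The peak nearest to the annotated end, at 119162394 to 119162445, had a p of 3.46e-07, and 7 of the 8 had a p under 0.05. No gene of the table covers them, and the next gene in that direction, the pseudogene Gm18921, ends 95.4 kb from Itgb8. Of 10362 coding genes with a known strand and no cortex peak in their span, 0.859% had at least 1 such peak within 5 kb past the end, and Itgb8 was the only one with 8 or more (0.00965%). Both limits, 8 peaks past the end and none in the span, are the values of Itgb8 itself and were set after they were seen. With these peaks past the end, the count of 0 for Itgb8 holds for the annotated span alone. The transcript these peaks belong to was not tested, and N2A had no peak there. Of the peaks nearest to the edge of the rule, one in Itgav lay 0.147 kb inside a gene end and one at Itgb8 lay 0.409 kb outside.

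**Figure D2:**
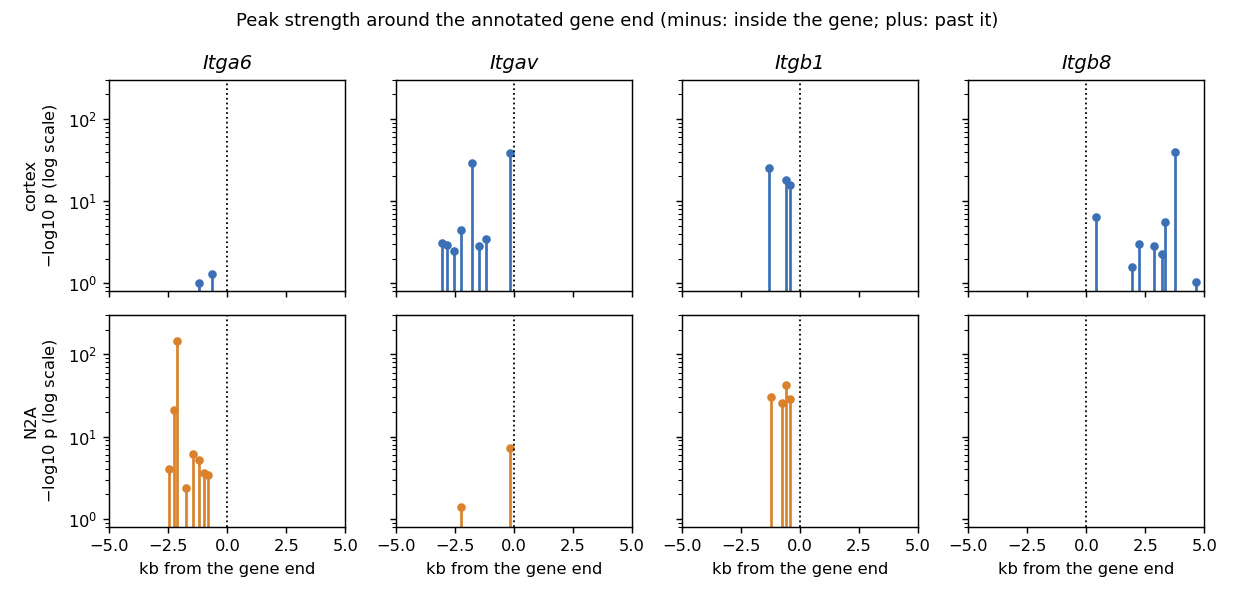
Peak strength as −log10 of the authors' p-value (vertical, log scale) against distance from the annotated gene end (horizontal, kb, minus inside the gene and plus past it), for 4 genes in cortex (top, blue) and N2A (bottom, orange); each stem is 1 peak, and heights are read within a list only. Itga6 has 8 N2A and 2 weak cortex peaks, the strong Itgav and Itgb1 peaks sit before the end in both lists, and the 8 cortex peaks at Itgb8 all lie past its end.

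Among the laminin-binding alpha subunits, Itga6 carried most of the peaks. Alpha 6 pairs with beta 1 or beta 4 and is used as a surface marker of several stem and progenitor cells. The gene lies on chromosome 2 at 71786886 to 71858427. Its peaks were on the plus strand. The promoter table has no entry for Itga6, so the gene end is taken from the strand of the peaks themselves. Itga6 had 8 N2A peaks but 2 cortex peaks. It was the member with the most N2A peaks, and 86 coding genes (0.393%) had as many. All 8 lay between 0.822 and 2.48 kb from the gene end, within 1713 nt, with gaps of 107 to 321 nt between neighbours. The strongest, at 71856248 to 71856299, had a p of 7.43e-145 and was 29th of the 7335 N2A peaks. By its best peak Itga6 was 24th among the coding genes of the N2A list. The neighbouring peak at 71856090 to 71856141 followed with a p of 1.45e-21.

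The other 6 N2A peaks of Itga6 had p-values from 8.34e-07 to 0.00412, so the 2 strongest sites were adjacent, 2.13 and 2.29 kb before the end. The cortex peaks lay in the same final stretch, but they were weak within their list. At 71857728 to 71857778 the p was 0.0515, and at 71857164 to 71857215 it was 0.0952, and 77.9% and 98.2% of the cortex list had a p as small or smaller. The second overlapped the N2A peak at 71857180 to 71857230, and no cortex peak overlapped either of the 2 strong N2A sites. The nearest cortex centre was 916 nt from the strongest N2A site.

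N2A supplied 8 of the 10 Itga6 peaks, or 80.0%. The same share was 30.8% for Itgb1 and 14.3% for Itgav, and it was 6.98% over all peaks of the lists. These shares describe genes chosen with their counts known, and neighbouring peaks in a transcript are not independent. Among coding genes with peaks in both lists, 7.68% had more peaks in N2A than in cortex. Itga6 was the only coding gene (1 of 21900, 0.00457%) with at least 8 N2A and at most 2 cortex peaks, limits that are its own values and were set after they were seen. With a p under 0.05 required, Itga6 kept 8 N2A peaks and had 0 in cortex.

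Itga7, the laminin receptor chain abundant in muscle, had a single cortex peak on chromosome 10 at 128937002 to 128937052 (p of 0.0382), 21.2 kb before the gene end in a span of 24.9 kb. That position also lies within the noncoding gene Gm46186. The promoter table gave no strand for Itga7, so whether the peak lies on the strand of the gene is unknown. From the other end of the span the peak lay 3.58 kb. Itga3, whose alpha 3 chain acts in the migration of cortical neurons, had no peak in its 32.4 kb span.

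Of the subunits that recognise arginine-glycine-aspartate, Itgav had the largest number of cortex peaks. Alpha v pairs with beta 1, beta 5, beta 8 and others. The gene lies on chromosome 2 at 83722303 to 83806917 on the plus strand and held 12 cortex and 2 N2A peaks. At least 12 cortex peaks were found in 8.67% of coding genes. Of its cortex peaks 8 lay within 5 kb of the end, spaced over 2955 nt. The strongest was the one closest to the end, at 83806720 to 83806770, with a p of 2.54e-39 and 0.147 kb from it. The next, at 83805114 to 83805164, had a p of 4.24e-30. Between and before these lay 6 peaks with p-values from 3.12e-05 to 0.00311.

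The 4 internal cortex peaks of Itgav lay 9.01 to 78.1 kb from the end and had p-values of 0.00641 to 0.0694. Each of the 2 N2A peaks of Itgav overlapped a cortex peak. The one at 83806700 to 83806750 (p of 4.71e-08) lay 20 nt from the centre of the strongest cortex peak. The other, at 83804628 to 83804679 (p of 0.0419), was displaced by 1.5 nt from a cortex peak of p 3.12e-05. No N2A peak was listed at the second strongest cortex site.

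Itga8, a subunit known from kidney development, had 2 cortex peaks on chromosome 2, at 12261769 to 12261820 (p of 0.0553) and at 12197789 to 12197839 (p of 0.0954). They lay 155.1 and 91.2 kb from the gene end and were the only peaks in its 195.4 kb. Itga5, encoding the fibronectin receptor chain, had no peak in its 22.5 kb span. Itga9 had 1 N2A peak, on chromosome 9 at 118674943 to 118674993 (p of 2.94e-08), and none in cortex. That peak lay on the minus strand, whereas the promoter table gives the plus strand for Itga9. Under the rule it counts as a peak of Itga9, since it is the only one, but it is antisense to the annotated gene, and no other gene of the table covers it. Of the 5 members with peaks and a strand in that table, the other 4 had their peaks on the annotated strand.

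**Figure D3:**
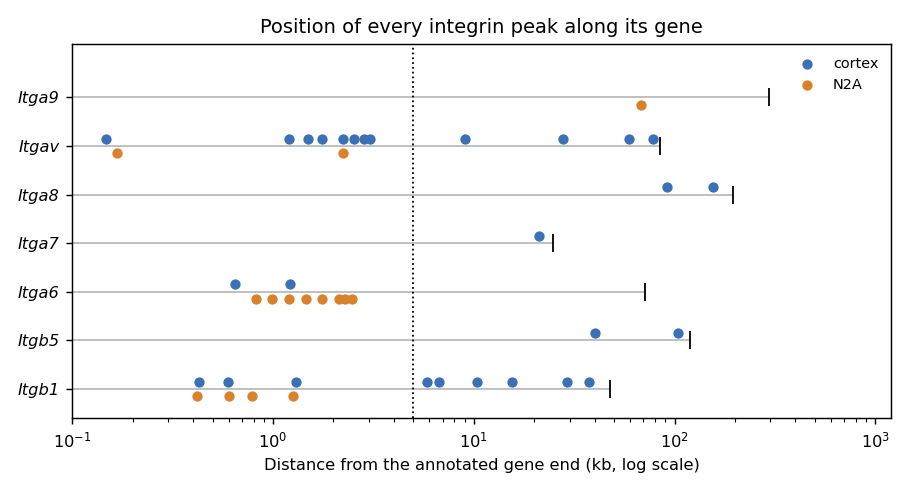
Distance of every member peak from the annotated gene end (horizontal, kb, log scale) in each of the 7 genes with peaks; blue is cortex, orange is N2A, the black tick marks the full length of the gene, and the dotted line is 5 kb. Apart from the Itga9 peak, which is antisense, the N2A peaks lie within 2.48 kb of the end, while cortex peaks are also scattered through gene bodies. For Itga9 the distance is measured on the strand of the peak.

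Position along the gene was not used to choose the members, though which genes have peaks can affect it. In cortex 13 of 28 member peaks lay within 5 kb of the gene end, or 46.4% (Wilson 95% interval 29.5 to 64.2), all of them in Itga6, Itgav and Itgb1. Over all coding genes the share was 19.9%, and it was 23.2% in genes of 20 to 300 kb. In N2A 14 of 15 member peaks lay there, or 93.3% (70.2 to 98.8), against 79% over all coding genes and 76.7% in those of 20 to 300 kb. Both shares rest on few genes. In cortex Itgav and Itgb1 held 21 of the 28 peaks, and in N2A Itga6, whose strand the promoter table does not give, held 8 of the 15. The intervals count each peak as independent, which peaks of the same gene are not, so they are no test against the shares over all coding genes. No test was made, since peaks of a gene are not replicates.

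The 5 strongest cortex peaks of the members had p-values of 3.09e-16 or less, and all lay within 1.75 kb of the end of Itgav or Itgb1. The next, internal to Itgb1, had a p of 9.68e-08. A p under 0.05 was given to 20 of 28 member peaks in cortex (71.4%) and 15 of 15 in N2A, against 77.2% and 79.7% of the whole lists. Per 100 kb of span, the number of cortex peaks was 18.8 in Itgb1 and 14.2 in Itgav. The median over coding genes with cortex peaks was 12.3. In the other 4 genes with cortex peaks the density ran from 1.02 in Itga8 to 4.02 in Itga7. In N2A the density was 11.2 in Itga6, 8.35 in Itgb1, 2.36 in Itgav and 0.340 in Itga9, with a median of 4.84 over coding genes with N2A peaks.

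Sites used in both lists were found in the same 3 genes. Of the 15 N2A peaks, 5 overlapped a cortex peak by at least 1 nt on the same strand, or 33.3% (Wilson 95% interval 15.2 to 58.3), and these matched 5 of the 28 cortex peaks (17.9%). Among all N2A peaks in coding genes, 42.3% overlapped a cortex peak, and 44.8% did in genes with peaks in both lists. By gene the count was 2 of 2 in Itgav, 2 of 4 in Itgb1, 1 of 8 in Itga6 and 0 of 1 in Itga9. Here too the interval counts each peak as independent, which peaks of the same gene are not.

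The other 17 integrin subunit genes had no peak in either list. They are Itga1, Itga2, Itga2b, Itga4, Itga10, Itga11, Itgad, Itgae, Itgal, Itgam, Itgax, Itgb2, Itgb2l, Itgb3, Itgb4, Itgb6 and Itgb7. Many of them, such as Itgal, Itgam, Itgax, Itgb2 and Itgb7, are known mainly from blood and immune cells, and Itga2b from platelets. Whether this bears on the lack of peaks was not tested. One cortex peak (p of 0.0964) lay 1.29 kb past the end of Itga1. By this rule 7 of 27 spans in the family held a peak. Among all coding genes, 40.8% had a cortex peak and 14.4% an N2A peak. The members were chosen with earlier counts of their peaks known, so the contrast with the other 17 genes is partly set by that choice. The spans of the other 17 were also shorter, with a median of 39.0 kb against 73.5 kb for the members. Whether span length bears on the contrast was not tested.

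Genes that act with integrins were then counted from 4 hand-written lists of 91 genes. Of these, 63 had a cortex peak and 27 an N2A peak. With peaks that touch another coding gene left out, 61 and 26 did. Matrix ligands had cortex peaks in 15 of 31 genes (48.4%) and N2A peaks in 4 (12.9%), beside 40.8% and 14.4% of all coding genes. The 4 were Lamc1, the gamma 1 chain of most laminins (5 cortex and 5 N2A peaks), Agrn, encoding agrin (2 and 3), Tgfb2, a TGF-beta (3 and 2), and Col4a2, a basement membrane collagen (1 and 1). Fn1, encoding fibronectin, and Vtn, encoding vitronectin, had none. Tnr, encoding the brain matrix protein tenascin-R, had 32 cortex peaks and Reln, encoding reelin, had 16, with none in N2A for either.

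Cytoskeletal adaptors had cortex peaks in 17 of 25 genes (68.0%) and N2A peaks in 4 (16.0%). The 4 were Actn1 (2 cortex and 5 N2A peaks) and Actn4 (12 and 2), which encode actin-crosslinking alpha-actinins, Vcl (5 and 5), encoding vinculin, and Lims1 (5 and 3), encoding PINCH1 of the complex with integrin-linked kinase. Another coding gene, Capn12, had 1 cortex and 2 N2A peaks, with the same smallest p in each list as Actn4. These peaks of Actn4 may therefore count for both genes. Among the direct activators, Tln2, a talin, had 9 cortex peaks and Fermt2, a kindlin, had 6. Tln1, the other talin, and the kindlins Fermt1 and Fermt3 had none in cortex, and no talin or kindlin gene had an N2A peak.

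Signalling genes had cortex peaks in 22 of 23 genes (95.7%), Nedd9 being the exception, and N2A peaks in 12 (52.2%). Cdc42, a small GTPase that shapes actin, had 15 cortex and 7 N2A peaks, Rock2, a kinase that raises actomyosin contraction, had 35 and 5, and Rap1b, a GTPase of integrin activation, had 5 and 3. Rac1 had 12 and 2, and Rhoa had 4 and 2. Single N2A peaks were listed in Ptk2, which encodes focal adhesion kinase and had 44 cortex peaks, and in Fyn, Crk, Crkl, Rock1, Rap1a and Ptpn12. Membrane partners and trafficking genes had cortex peaks in 9 of 12 (75.0%) and N2A peaks in 7 (58.3%). The 7 were Arf6 (2 cortex and 4 N2A peaks), Rab11a (6 and 2) and Rab21 (5 and 2), GTPases of receptor recycling, Slc3a2 (2 and 2), the CD98 heavy chain, the tetraspanins Cd9 and Cd81 (2 and 1 each), and Numb (21 and 1), an endocytic adaptor. The median span was 74.1 kb in the signalling list and 19.5 kb in the list of membrane partners.

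**Figure D4:**
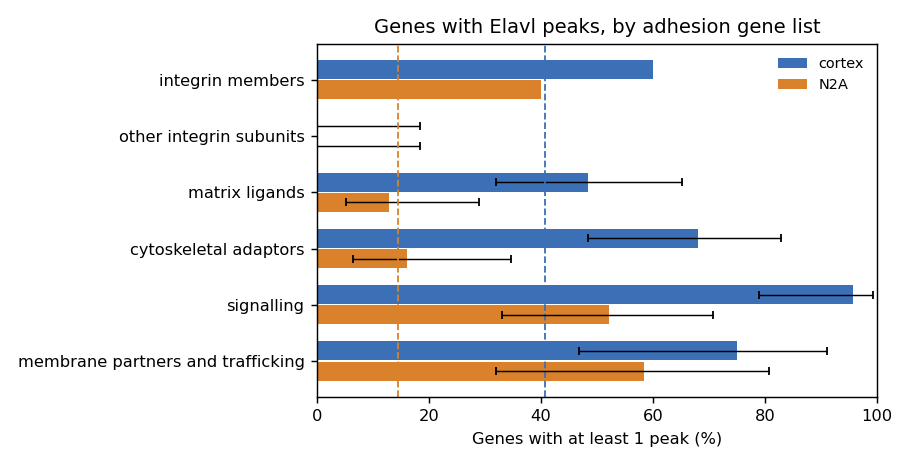
Share of genes with at least 1 peak (percent, horizontal) in cortex (blue) and N2A (orange) for the 10 members and 5 lists of related genes; lines are Wilson 95% intervals for counting error, none is drawn for the members, which were chosen with their peaks known, and dashed lines are the shares over all coding genes, 40.8% and 14.4%. Bars pass both dashed lines for the members, signalling genes and membrane partners. Cytoskeletal adaptors pass the cortex line and, at 16.0%, lie near the N2A line. Matrix ligands lie near both lines (48.4% and 12.9%), and the other integrin subunits are at 0. Median spans are 64.5 kb for matrix ligands, 69.1 kb for cytoskeletal adaptors and 74.1 kb for signalling genes. They are 73.5 kb for the members, 39.0 kb for the other integrin subunits, 19.5 kb for membrane partners and 17.1 kb for all coding genes.

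The genes of these lists nearest to Itga6 in their numbers of peaks, by the distance between log2(peaks + 1) over the 2 lists, were Actn1 (distance 0.58), Arf6 (0.85) and, tied, Lamc1 and Vcl (1.16 each). Lamc1 had its 5 N2A peaks within 5 kb of the gene end, as Vcl and Itga6 had theirs, with best p-values of 2.46e-07 and 7.85e-18. Of the 5 N2A peaks of Actn1, 4 lay there. These counts are across 2 lists only.

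Marker genes of the labelled materials were read as a check. All 5 excitatory neuron and all 5 astrocyte markers had cortex peaks, as did 4 of 5 interneuron, 4 of 5 oligodendrocyte, 2 of 5 endothelial and 1 of 5 microglia markers. None of these 30 genes had an N2A peak. The sympathoadrenal and neuroblastoma markers Phox2a, Hand2 and Gata2 had N2A peaks and no cortex peak. Cortex peaks thus lay in markers of several cell types, and which cells carried the integrin transcripts was not tested.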

How the data were processed

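Elavl HITS-CLIP peak lists from 3 cortex samples (1 list) and 1 N2A sample (1 list) were used. Each deposited p-value is the authors' own, 1 per peak, running from 0 up to below 0.1. Adjustment for multiple testing and the peak caller are unstated. Novoalign (no version) and hg19 appear in the submitters' processing notes. Peaks were read as GRCm38 because 94.9% of cortex and 94.6% of N2A peaks touched a coding span of GRCm38.p6, against 42.0% and 44.8% after a shift of 1000000 nt. Coordinates are as deposited; whether they start at 0 or 1 is not stated.

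From these lists, peaks overlapping each coding span by at least 1 nt were counted with Python 3.11.15 and pandas 2.3.3, on the strand of most of the gene's peaks over both lists; a peak in 2 spans counted for both. Distances run to the outer end of the span on the peak's strand. Strand came from the RefSeq promoter table, which lists 8 of the 10 members; their promoter windows held 0 peaks. Counting was tested on simulated data. Exons and genome sequence were not used here. All members, every list gene with an N2A peak and the strongest peaks were named by rule; Tln1, Tln2, Fermt1, Fermt2, Fermt3, Fn1, Vtn, Nedd9, Tnr and Reln and the weaker peaks were added after values were seen. The members and lists were chosen with earlier results of these data known. No test was made, since no value belongs to a sample. Some list genes are not reported here.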

Additional observations from a re-analysis of the deposited data

How the results depend on the processing

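Of 90 recomputed values for the member set and the gene lists, 7 moved, a count by over 1.5 times or a share past its 95% interval. With a p under 0.01, member cortex peaks fell from 28 to 16, members with one from 6 to 3 (a count added after seeing the data), the share of these peaks within 5 kb of the gene end became 68.8%, and N2A peaks overlapping a cortex peak fell from 5 to 3, because weaker peaks are left out. With spans extended by 5 kb past the gene end, 1 of the other integrin subunits, Itga1, had a cortex peak, and Itgb8 had 8. With a window of 2 kb, 66.7% of N2A member peaks lay at the gene end. With the annotated strand, added after seeing the data, the Itga9 peak dropped out and the share was 100%. Of 140 counts for single members, 9 moved. Leaving out peaks that touch another coding gene, counting both strands, and requiring 50% of a peak in the span moved none. Unknown depth limits every comparison of the lists. No replicate could be left out, and no paired analysis was possible because each group has 1 list and N2A 1 sample.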
